A study of Mus musculus with 20 samples.

Results

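The interleukin 17 (IL-17) receptor family was followed in the uteri of pregnant mice by the levels of 9 genes: the receptor subunits Il17ra, Il17rb, Il17rc, Il17rd and Il17re, the ligands Il17a, Il17d and Il25, and Traf3ip2, which encodes the adaptor Act1. They were chosen by gene symbol from the 45777 genes listed, with their levels in these samples already known, and 7 of the 9 were above 0 in all 20 libraries. RNA was taken from 1 uterine horn of each of 20 wild-type B6D2F1 females aged 8 to 12 weeks, collected at 18:00 on day 3.5 after mating, with 5 mice in each of 4 groups. Control mice received neither drug nor cells. In the implantation failure (IF) group, RU486, an antagonist of the progesterone and glucocorticoid receptors, was injected under the skin at 3 mg/kg on the morning of day 3.5. The PBMC group received the same dose of RU486 after 50000 peripheral blood mononuclear cells (PBMCs) of non-pregnant mice had been placed in each horn on day 1.5. The PBMC-hCG group was treated likewise, but its cells had been cultured for 24 h with 5 IU/mL human chorionic gonadotropin (hCG), whereas those of the PBMC group had been cultured without it. Mice injected with medium alone are not analysed here, so an effect of the cells and an effect of the injection cannot be told apart, and RU486 marks all 3 groups other than control.

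IL-17 cytokines are secreted by lymphocytes and by epithelial and other tissue cells, and act mainly on epithelial cells, fibroblasts and other non-blood cells. IL-17RA is the shared subunit: it pairs with IL-17RC to bind IL-17A and IL-17F, with IL-17RB to bind IL-25, and with IL-17RE to bind IL-17C. Act1 binds the intracellular domain of the receptors and recruits TRAF proteins, from which NF-kappaB, C/EBP and MAP kinase signals and the stabilization of chemokine mRNA follow. IL-17RD, also called Sef, differs from the others in that it restrains fibroblast growth factor (FGF) signalling to ERK.

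Levels are given as TPM, transcript abundances scaled per length and to a fixed total per library. Differences between groups are log2 differences of group means of log2(TPM + 0.1), with their standard error (SE). They are taken from a limma fit of all 18706 genes above 0 in every library. That fit gives each gene a spread shared by all 4 groups. The SE of a gene is therefore the same in each comparison and does not follow the spread of the groups compared. Since the members were chosen with their levels known, their differences are given as a description with no p-value. Only genes of the pathway lists are given adjusted p-values. These lists were also chosen with earlier results of these data known, so their counts are a description and no test of the pathway. Values of the mice of a group are listed from replicate 1 to replicate 5. The depth of the libraries is unknown. The uterine genes Esr1, Pgr, Hoxa10 and Hoxa11 were above 0 in all libraries, and the correlation of log2 levels between mice of a group lay between 0.961 and 0.992. In RNA of a whole horn, fewer cells of a type and less RNA per cell cannot be told apart.

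Il17re and Il17rc are neighbours on chromosome 6 of GRCm38 (113458699 to 113470758 and 113471455 to 113483163), 696 bases apart with 0 protein-coding genes between them, and Il17ra lies on the same chromosome at 120463181 to 120483731. Il17rd (27038964 to 27107286), Il17rb (29996168 to 30008896), Il25 (54932695 to 54935837) and Il17d (57524829 to 57543166) lie on chromosome 14, Il17a on chromosome 1 (20730905 to 20734496) and Traf3ip2 on chromosome 10 (39612934 to 39655307). The sequences directly before 3 of the gene starts are shown because these receptors had the patterns that set them apart from each other in the values below: Il17rc was highest in control uteri, Il17rd was lowest there, and Il17rb varied most between mice. They are from RefSeq for GRCm38.p6, which gave such a sequence for 6 of the 9 members, and are printed 5′ to 3′ on the strand of the gene. Il17rc is at chr6:113471205-113471454 (plus strand), Il17rd at chr14:27038751-27038963 (plus strand) and Il17rb at chr14:30008897-30009146 (minus strand), and the sequence of Il17rd is 213 bases long instead of 250. Both strands were searched, and capitals mark the matches. In Il17rc they mark GGTCA, a part of the estrogen response element and not the whole, read here on the other strand. In Il17rd they mark the binding letters of Sp1, GGGCGG, found in both of its places. In Il17rb they mark the AP-1 motif, which is TGAGTCA, and the Sp1 letters.
Il17rc: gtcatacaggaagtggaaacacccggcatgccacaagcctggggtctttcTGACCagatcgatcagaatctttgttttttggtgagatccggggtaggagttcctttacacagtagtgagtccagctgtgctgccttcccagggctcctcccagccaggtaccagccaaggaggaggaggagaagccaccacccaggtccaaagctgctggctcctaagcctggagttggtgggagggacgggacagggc
Il17rd: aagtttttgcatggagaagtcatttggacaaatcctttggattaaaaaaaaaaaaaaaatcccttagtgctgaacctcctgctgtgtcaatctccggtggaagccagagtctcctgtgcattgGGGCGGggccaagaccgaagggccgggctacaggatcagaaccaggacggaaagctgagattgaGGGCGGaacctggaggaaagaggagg
Il17rb: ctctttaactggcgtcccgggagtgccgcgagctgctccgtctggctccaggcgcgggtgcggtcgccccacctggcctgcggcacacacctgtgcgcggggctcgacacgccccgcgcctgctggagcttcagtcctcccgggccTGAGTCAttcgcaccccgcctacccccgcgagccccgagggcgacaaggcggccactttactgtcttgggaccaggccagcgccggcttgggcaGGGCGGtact
Of 32851 upstream windows of 250 bases, 35.2% held GGTCA, 32.7% held GGGCGG and 4.46% held TGAGTCA on either strand. The matches shown do not overlap each other, and they are a description of the letters and not of binding. TGTTCT, likewise a part of the progesterone and glucocorticoid response elements, was held by 16.1% of windows and by none of the 6 member windows. The windows of Il17a and Il17re also held GGTCA.

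Il17ra, the shared receptor subunit, was lowest in control uteri and highest in IF uteri, with the PBMC and PBMC-hCG uteri between them. It was at 17.2, 17.7, 14.8, 17.2 and 16.1 TPM in the control mice. In the IF mice, it was at 33.4, 51.7, 36.8, 47.9 and 57.3 TPM, so that every IF uterus lay above every control uterus. The PBMC mice had 27.8, 30.6, 28.9, 28.05 and 43.2 TPM. The PBMC-hCG mice had 34.1, 22.4, 23.2, 24.6 and 26.5 TPM. All 15 RU486-treated uteri were above the highest control, and within both cell-treated groups 1 mouse stood above the other 4 and overlapped the IF range: PBMC 5 and PBMC-hCG 1. The means were 16.6 ± 1.14 TPM in control, 45.4 ± 10.1 in IF, 31.7 ± 6.50 in PBMC and 26.2 ± 4.73 in PBMC-hCG uteri (SD, n = 5 each). The log2 difference was 1.42 (SE 0.15) between IF and control, a fold of 2.68, and was -0.51 (SE 0.15) between PBMC and IF and -0.78 (SE 0.15) between PBMC-hCG and IF. PBMC and PBMC-hCG uteri were above control by 0.91 and 0.64 on the log2 scale (SE 0.15 each).

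Il17rc, the partner of IL-17RA in the receptor for IL-17A and IL-17F, had the opposite order between control and RU486-treated uteri and a narrow range. It was at 29.9, 30.7, 27.4, 29.8 and 25.7 TPM in the control mice. The IF mice had 22.2, 20.02, 23.5, 23.2 and 18.1 TPM. Every IF uterus was below every control uterus. The PBMC mice were at 22.4, 24.04, 20.6, 23.9 and 17.8 TPM and likewise all below the controls. The PBMC-hCG mice were at 22.2, 25.7, 22.2, 22.2 and 21.7 TPM, and PBMC-hCG 2, the highest, exceeded the lowest control by a small margin. The log2 differences from control were -0.42 in IF, -0.40 in PBMC and -0.33 in PBMC-hCG uteri (SE 0.09 each), and the 3 RU486-treated groups differed from each other by 0.02 to 0.09 with the same SE.

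The ratio of Il17ra to Il17rc, both of them in TPM and so per length, was below 1 in every control uterus and above 1 on average in the treated groups. It was 0.579 ± 0.030 in control uteri (range 0.542 to 0.627), 2.18 ± 0.704 in IF uteri (1.50 to 3.17), 1.50 ± 0.524 in PBMC uteri (1.17 to 2.43) and 1.16 ± 0.248 in PBMC-hCG uteri (0.872 to 1.54; SD, n = 5 each). No RU486-treated uterus had a ratio as low as any control, and PBMC-hCG 2 was the 1 treated uterus with more Il17rc than Il17ra.

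**Figure D1:**
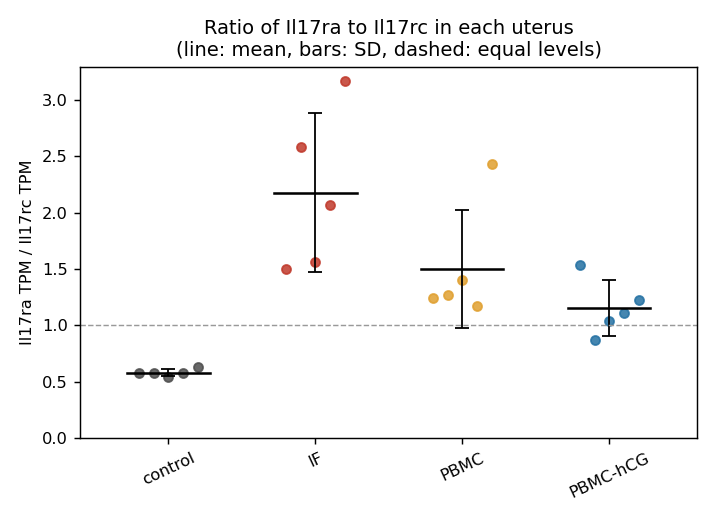
Ratio of the Il17ra level to the Il17rc level (TPM over TPM, vertical axis) in each uterus of the 4 groups, with 1 point per mouse, the group mean as a line and the SD as bars. The 5 control uteri lie between 0.542 and 0.627, below the dashed line of equal levels, and the 5 IF uteri between 1.50 and 3.17, above it.

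Il17rb, which forms the IL-25 receptor with IL-17RA and also binds IL-17B, was the most abundant member on average in control, PBMC and PBMC-hCG uteri, and it was the most variable one. In control mice it was at 113, 10.2, 145, 163 and 20.6 TPM, with control 2 and control 5 far below the other 3. In IF mice it was at 75.5, 29.8, 13.3, 36.4 and 6.86 TPM, which overlapped the controls. The PBMC mice had 102, 78.3, 64.9, 111 and 50.5 TPM and the PBMC-hCG mice 82.8, 61.7, 96.2, 40.9 and 136 TPM. None of the 10 cell-treated uteri was as low as the 4 lowest IF uteri, and IF 1 lay within their range. The highest control was 16.0 times the lowest and the highest IF uterus 11.01 times the lowest, against 2.20 times within the PBMC and 3.34 times within the PBMC-hCG group.

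The log2 difference of Il17rb was -1.24 between IF and control, 1.71 between PBMC and IF and 1.70 between PBMC-hCG and IF, all with an SE of 0.70. PBMC-hCG and PBMC uteri differed by -0.02 (SE 0.70). Control 2 moved these values: without it, the difference between IF and control was -1.85, and that between PBMC and control changed from 0.47 to -0.14 and between PBMC-hCG and control from 0.46 to -0.16. The SE of 0.70 is shared by all comparisons. The SD of log2 levels of Il17rb was 1.83 in control, 1.33 in IF, 0.467 in PBMC and 0.657 in PBMC-hCG uteri. Taken over all 4 groups, the SD of Il17rb within groups was 1.20 on the log2 scale. This was the 99.5th percentile of the 15771 genes with a mean of at least 1 TPM, whose median SD was 0.197. The other members lay between 0.141 for Il17rc (29.3rd percentile) and 0.376 for Il17re (82.3rd percentile).

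Il17re, the IL-17C receptor subunit, differed little between groups. It was at 8.24, 17.3, 7.76, 6.94 and 7.56 TPM in control and 7.58, 6.34, 14.2, 7.58 and 6.16 TPM in IF mice. The PBMC mice had 8.71, 7.75, 8.04, 9.82 and 7.33 TPM and the PBMC-hCG mice 7.82, 9.10, 9.84, 9.98 and 10.00 TPM. Control 2 and IF 3 stood above all other uteri, and the remaining 18 lay between 6.16 and 10.0 TPM in all groups. The log2 differences ranged from -0.17 to 0.22 over the 6 comparisons (SE 0.23), and that between IF and control was 0.06 without control 2. The summed level of 7 uterine epithelium markers was 930 TPM in control 2 against 511 to 631 TPM in the other controls, and 981 TPM in IF 3 against 761 to 869 TPM in the other IF uteri. Higher sums were found in other groups, among them PBMC 5 (1075 TPM) and PBMC-hCG 2 (1177 TPM), where Il17re was at 7.33 and 9.10 TPM. The part of tissue composition in the Il17re levels of these mice was not tested.

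Il17rd, the FGF-restraining member of the family, was lowest in control and highest in PBMC-hCG uteri. In control mice it was at 8.84, 9.75, 8.23, 7.95 and 7.79 TPM and in IF mice at 13.1, 13.3, 16.9, 11.95 and 9.42 TPM, where IF 5 alone lay within the control range. The PBMC mice had 16.4, 17.6, 15.2, 17.4 and 10.8 TPM and the PBMC-hCG mice 15.4, 21.2, 21.5, 18.96 and 19.1 TPM. All 10 of these were above the highest control, and 4 of the 5 PBMC-hCG uteri were above every PBMC and IF uterus. The log2 difference from control was 0.58 in IF, 0.84 in PBMC and 1.16 in PBMC-hCG uteri, and that of PBMC-hCG from IF was 0.58 (SE 0.15 each). Unlike Il17ra, Il17rd was therefore farther from its control level in the cell-treated groups than in the IF group. The difference in direction between these genes was not tested.

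**Figure D2:**
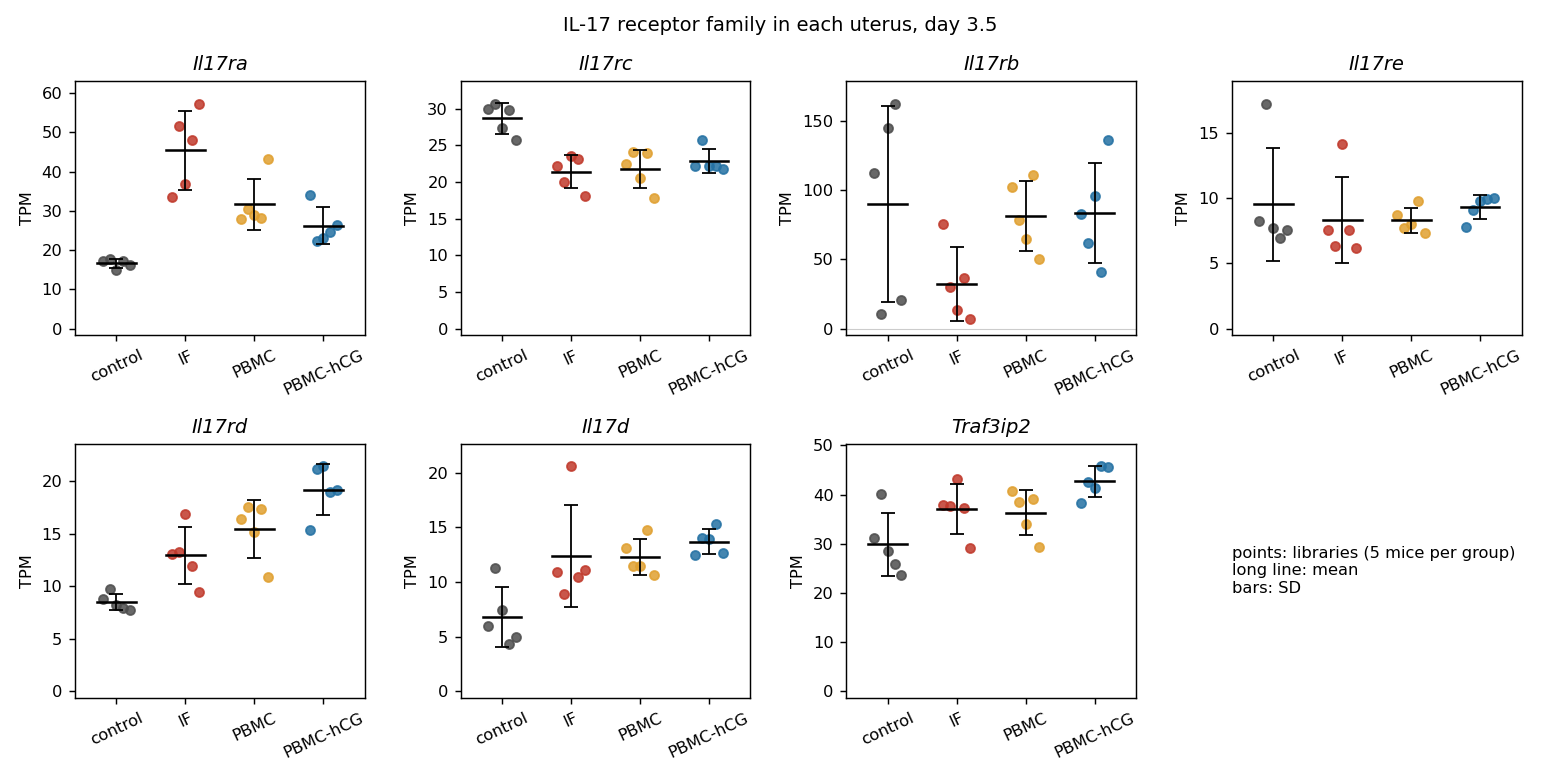
Level in TPM (vertical axis, linear, 1 scale per panel) of the 7 members above 0 in every library in each uterus of the 4 groups, with the group mean as a line and the SD as bars. Il17ra is highest and Il17rc lower than control in IF uteri, Il17rd steps up to a mean of 19.2 TPM in PBMC-hCG uteri, and Il17rb spans 10.2 to 163 TPM among the controls.

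Among the ligands, Il17d was the only one above 0 in all 20 uteri. It was at 5.97, 11.2, 7.40, 4.31 and 4.94 TPM in control and 10.9, 8.94, 20.6, 10.5 and 11.1 TPM in IF mice. Control 2 lay within the IF range, and IF 3 stood above all others. The PBMC mice had 13.1, 11.4, 11.5, 14.7 and 10.6 TPM and the PBMC-hCG mice 12.5, 14.01, 13.9, 15.3 and 12.7 TPM, the latter all above the controls. The log2 difference from control was 0.88 in IF, 0.92 in PBMC and 1.08 in PBMC-hCG uteri (SE 0.22 each). The 3 RU486-treated groups differed from each other by 0.04 to 0.20 with the same SE. The SD of log2 levels was 0.535 in control, 0.459 in IF, 0.187 in PBMC and 0.119 in PBMC-hCG uteri. The shared SE does not follow these spreads.

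The ligands of the other receptor pairs were at or near 0. Il17a was above 0 in PBMC 2 (0.122 TPM) and listed at 0 in the other 19 uteri, and Il17f, which shares its receptor, was listed at 0 in all 20. Il25, the ligand of the Il17rb and Il17ra pair, was above 0 in 9 of 20 uteri, with a highest value of 0.299 TPM: 2 control, 1 IF, 3 PBMC and 3 PBMC-hCG mice. Il17b was above 0 in 17 uteri (up to 1.55 TPM). Il17c was above 0 in 4 IF and 1 PBMC uteri (up to 0.334 TPM) and listed at 0 in the control and PBMC-hCG uteri. As depth is unknown, no detection limit can be given for these zeros.

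The lymphocytes that secrete IL-17A were represented by 8 markers, whose summed level was 67.6 to 97.6 TPM in control, 37.3 to 64.0 in IF, 48.1 to 59.7 in PBMC and 35.9 to 42.9 in PBMC-hCG uteri. The sum does not follow the whole list: Zbtb16, which other cells also express, was at 31.6 to 46.3 TPM in control and 1.28 to 4.32 TPM in IF uteri, whereas the mean of 5 of the 8 markers was higher in IF than in control uteri. Il1r1, which stromal cells also express, had the highest median of the list, and the more specific Il23r and Ccr6 did not exceed 0.372 and 0.771 TPM. The 6 T cell markers summed to 13.04 to 31.4 TPM over all uteri, with overlapping ranges in the 4 groups. Of the 4 tuft cell markers, the sources of Il25 in other mucosae, Pou2f3 and Trpm5 did not exceed 0.662 and 0.693 TPM, and Dclk1, which other cells also express, made up most of the sum.

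Traf3ip2, the gene of the adaptor Act1, was among the more abundant members in all groups. It was at 31.2, 40.2, 28.6, 25.9 and 23.7 TPM in control and 37.9, 37.7, 43.2, 37.4 and 29.2 TPM in IF mice. The PBMC mice had 40.7, 38.5, 34.1, 39.1 and 29.3 TPM and the PBMC-hCG mice 38.3, 42.6, 41.4, 45.8 and 45.7 TPM. The ranges of all 3 treated groups overlapped the control range, that of the PBMC-hCG group through control 2 alone, and 4 of the 5 PBMC-hCG uteri were above this highest control. The log2 difference from control was 0.32 in IF, 0.30 in PBMC and 0.54 in PBMC-hCG uteri (SE 0.13 each).

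The order of the members by mean TPM differed between groups. In control uteri it was Il17rb, Traf3ip2, Il17rc, Il17ra, Il17re, Il17rd, Il17d, Il25 and Il17a, with no overlap between Il17rc and Il17ra or between Il17d and Il25, and overlapping ranges for all other neighbours. In IF uteri, Il17ra led, followed by Traf3ip2, Il17rb and Il17rc, whose neighbours all overlapped. Il17rd came next, below the range of Il17rc, and then Il17d and Il17re, with overlapping ranges between these neighbours. Il17d in IF 3 lay within the range of Il17rc. In PBMC uteri Il17rb was above Traf3ip2 without overlap, and Il17rc was apart from both Il17ra above it and Il17rd below it, and Il17re was below the range of Il17d. In PBMC-hCG uteri Il17rb and Traf3ip2 overlapped, and so did Il17ra and Il17rc below them, whereas Il17rd, Il17d and Il17re followed without overlap.

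**Figure D3:**
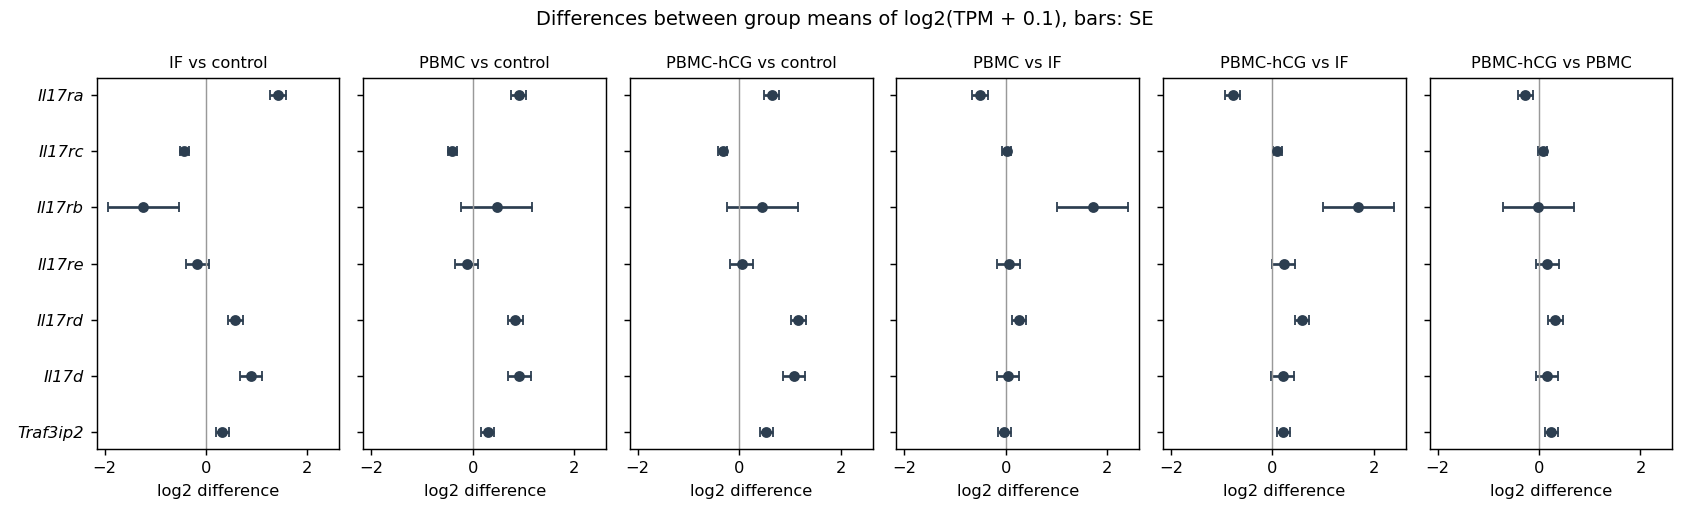
Log2 differences between group means of log2(TPM + 0.1) (horizontal axis) for the 7 members above 0 in every library, with 1 panel per comparison and bars of 1 SE. Il17ra is at 1.42 between IF and control and at -0.78 between PBMC-hCG and IF, Il17rd is above 0 in all 6 panels, and the bars of Il17rb reach 0.70 to either side.

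The share of members past the limma threshold (adjusted p under 0.05) is set here beside that of all 18706 genes, and nothing is read from it because the members were chosen with these values known. Between IF and control, 4 of the 7 passed (Il17ra, Il17rd and Il17d higher, Il17rc lower), beside 21.9% of all genes, and 2 had ranges that did not overlap, beside 12.8%. The call of Il17d was lost when the IF and control groups were fitted alone, and Il17rb passed as lower without control 2. Traf3ip2 passed as higher than control in IF uteri without control 2 or without IF 5, and in PBMC uteri without control 2 or without PBMC 5. Between PBMC and control 4 of 7 passed, the same 4 genes in the same directions, beside 19.5%, and 3 had ranges apart, beside 12.7%. Between PBMC-hCG and control, 5 of 7 passed, Traf3ip2 in addition, beside 31.8%, and 3 had ranges apart, beside 18.3%. These 3 comparisons share the control libraries.

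Between PBMC-hCG and IF, 2 of the 7 passed (Il17rd higher, Il17ra lower), beside 13.6% of all genes, and 0 had ranges apart, beside 7.24%. These 2 calls were lost without any 1 of IF 2, IF 4, IF 5, PBMC-hCG 2, PBMC-hCG 3, PBMC-hCG 4 or PBMC-hCG 5, which is 7 of the 10 mice compared. Over 20 alternatives, the log2 difference stayed between -0.88 and -0.69 for Il17ra and between 0.47 and 0.68 for Il17rd. The share of all genes that passed without each mouse was not counted. The comparisons with IF share the IF libraries. Between PBMC and IF, 0 of the 7 passed, beside 0% of all genes, although 1271 genes had an unadjusted p under 0.05 in limma's test, and 0 had ranges apart, beside 1.01%. Between PBMC-hCG and PBMC, 0 of 7 passed, beside 0.0107%, with 3024 genes at an unadjusted p under 0.05 in limma's test, and 0 had ranges apart, beside 3.46%. By the rule of a fold of at least 2 with an unadjusted p under 0.05, the members called were Il17ra between IF and control (beside 4.03% of all genes), Il17rb between PBMC and IF (0.438%) and between PBMC-hCG and IF (2.31%), and Il17d and Il17rd between PBMC-hCG and control (4.74%). None was called by it between PBMC and control (3.34%) or PBMC-hCG and PBMC (0.893%). The median log2 difference of the 7 members ranged from 0.04 between PBMC and IF to 0.54 between PBMC-hCG and control, against 0.02 and 0.08 for all genes.

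From mouse to mouse, some pairs of members varied together and others in opposite directions. This is described here over 20 libraries as Pearson's r of log2 values after the group means had been removed. Il17rc and Il17rd had an r of 0.78, Il17rd and Traf3ip2 one of 0.80, and Il17ra and Il17rd one of -0.75. With each other member above 0 in every library, Il17ra had a negative r, from -0.75 with Il17rd to -0.31 with Il17rb. For Il17rb, r ranged from -0.42 with Il17d to 0.25 with Il17rc. Pairs drawn from all genes were not examined, so nothing is said of the family as a set. Across all 20 libraries with the group means kept, Il17rc and Il17rd had an r of -0.34, opposite in sign to the one within groups. Il17re and Il17d had an r of 0.91 within groups and 0.71 without control 2 and IF 3. All points of a pair share the library and its scaling to a fixed total.

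The genes outside the family whose log2 levels were most like those of Il17ra over the 20 libraries were Lrtm2, Slc41a1 and Oxtr, with r between 0.971 and 0.974 and between 0.847 and 0.855 after removal of group means. Oxtr, the oxytocin receptor, was at 5.80 to 19.6 TPM in control, 81.9 to 265 TPM in IF, 35.1 to 176 TPM in PBMC and 19.9 to 89.1 TPM in PBMC-hCG uteri. Its highest values in the cell-treated groups were in PBMC 5 and PBMC-hCG 1, as were those of Il17ra. Most like Il17rb were Gm35572, Acot7, an acyl-CoA thioesterase gene, and Mme, which encodes neprilysin, with r between 0.950 and 0.955, and between 0.939 and 0.950 after removal of group means. Control 2 and control 5 were the lowest controls for Il17rb, Acot7 (31.9 and 60.0 TPM against 165 to 187 TPM) and Mme (48.7 and 58.6 TPM against 145 to 166 TPM).

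**Figure D4:**
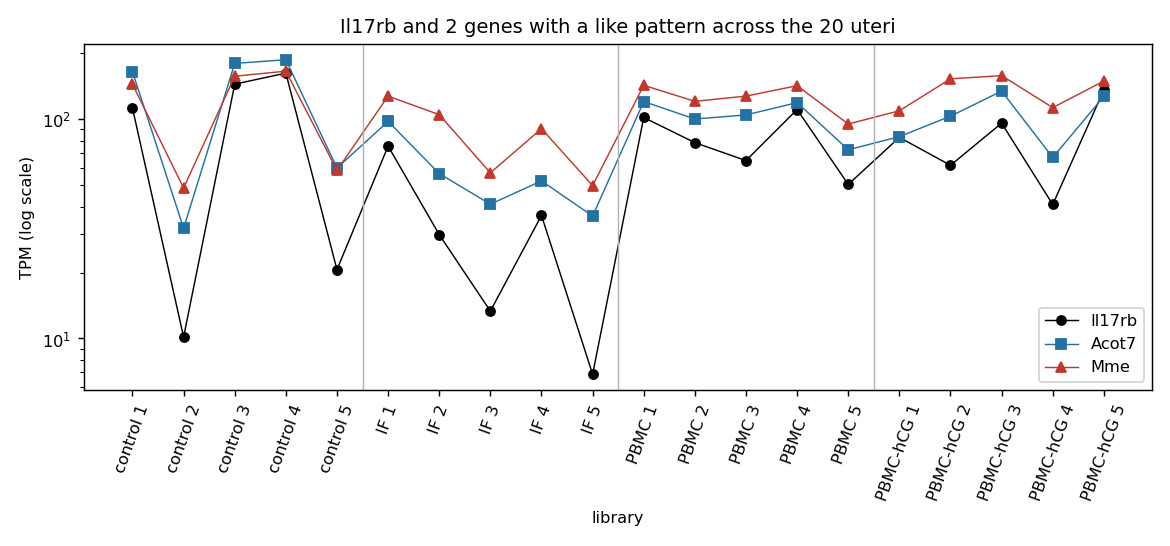
Level in TPM (vertical axis, log scale) of Il17rb, Acot7 and Mme in each of the 20 libraries (horizontal axis, grouped and divided by vertical lines). The points of a gene are joined only to guide the eye, and all 3 genes are low in control 2 and control 5 (10.2 and 20.6 TPM for Il17rb) and in IF 3 and IF 5.

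Most like Il17rc were Gm12426, Minar1 and Abhd14a, with r of 0.929 to 0.944, and of 0.812 to 0.838 after removal of group means. Among those most like Il17rd were Gnb4, a G protein subunit gene, and C1s2, a complement protease gene. Their r was 0.971 and 0.970, and 0.875 and 0.844 after that removal. Trafd1 and Rtn2 were among those most like Il17d (0.959 and 0.946, and 0.896 and 0.909 after removal of group means). Maf1, a repressor of RNA polymerase III, Calcoco1 and Inpp5k followed Traf3ip2 (0.955 to 0.966, and 0.924 to 0.947 after that removal). The genes most like Il17re included Galnt11 and 1700094D03Rik, with r of 0.915 and 0.899. These rested in part on control 2 and IF 3: without these 2 libraries r was 0.739 and 0.783.

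The other genes of the pathway were taken from lists of adaptors and kinases, regulators of transcription and mRNA, target genes, and FGF and ERK feedback genes, 66 genes in all with the 3 other ligands, of which 49 were above 0 in every library. Between IF and control, 15 of the 49 rose and 0 fell at an adjusted p under 0.05 (limma, Benjamini-Hochberg over all 18706 genes), beside 13.4% of all genes higher and 8.53% lower. Their median log2 difference was 0.22 against 0.02 for all genes. As the lists were chosen with earlier results known, the counts of pathway genes here and below do not test a shift of the pathway. Of the regulators, 4 of 11 rose. They included Cebpb, the gene of a C/EBP transcription factor downstream of IL-17 receptors, which rose by 1.89 (adjusted p = 0.00038), and Arid5a, which encodes an mRNA stabilizing protein, by 0.63 (adjusted p = 0.0165). Of the 14 adaptors and kinases 4 rose, led by Tab2 (0.36, adjusted p = 3.15e-05) and Traf4 (0.29, adjusted p = 0.00773).

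Of the 28 target genes, 14 were above 0 in every library, and 2 of these rose between IF and control. Ccl11, the gene of the eosinophil chemokine eotaxin, was at 16.0 to 19.5 TPM in control and 59.8 to 105 TPM in IF uteri (log2 difference 2.24, adjusted p = 6.15e-07 in limma). S100a9, which encodes a calprotectin subunit, rose by 1.37 (adjusted p = 0.0413 in limma). The ranges of S100a9 overlapped, at 0.530 to 3.05 TPM in control and 1.72 to 14.1 TPM in IF uteri, where IF 5 was highest. S100a9 is also 1 of 6 neutrophil markers, whose summed level was 7.08 to 10.2 TPM in control, 9.23 to 30.6 in IF, 20.2 to 31.9 in PBMC and 12.2 to 16.9 in PBMC-hCG uteri. The part of neutrophils in its levels was not tested. Chemokine and cytokine genes known as IL-17 targets, Cxcl1, Cxcl2, Ccl20, Csf2 and Il6, were at 0 in at least 1 library and were not tested. Of the 10 FGF and ERK feedback genes, 5 rose, among them Fgfr1, an FGF receptor gene, by 0.58 (adjusted p = 0.000245) and Spry2, an inhibitor of receptor tyrosine kinase signalling, by 0.55 (adjusted p = 0.00294).

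Between PBMC-hCG and IF, 1 of the 49 pathway genes rose and 13 fell (adjusted p under 0.05 in limma), beside 7.61% of all genes higher and 5.99% lower, and the median log2 difference was -0.05 against 0.05 for all genes. Cebpb fell by 1.55 (adjusted p = 0.0258) and the related Cebpd by 0.85 (adjusted p = 0.0309). Among target genes, Ptgs2, the gene of cyclooxygenase-2, fell by 1.87 (adjusted p = 0.0385 in limma) and the chemokine gene Ccl7 by 1.80 (adjusted p = 0.0499 in limma). The ranges of both overlapped. Ptgs2 was at 1.21 to 5.81 TPM in IF and 0.432 to 1.90 TPM in PBMC-hCG uteri. Ccl7 was at 2.87 to 20.4 TPM in IF and 1.44 to 5.74 TPM in PBMC-hCG uteri. Chuk, which encodes an IkappaB kinase, fell by 0.41 (adjusted p = 0.0292). Of the FGF and ERK list, Fgfr2 rose by 0.52 (adjusted p = 0.0258 in limma). Spry4 fell by 1.02 (adjusted p = 0.0287 in limma) and Etv4 by 0.87 (adjusted p = 0.0451 in limma). Etv4 was low, with overlapping ranges of 0.364 to 1.50 TPM in IF and 0.457 to 0.617 TPM in PBMC-hCG uteri. All 14 calls were lost without any 1 of the 7 mice named above for Il17ra and Il17rd. Without 1 of the other 3, 10 to 18 pathway genes were called. The share of all genes called in these fits was not counted.

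Between PBMC and IF, and between PBMC-hCG and PBMC, 0 of the 49 pathway genes passed the adjusted threshold in limma's test, the only one run. In that test, 4 pathway genes were higher and 1 lower in PBMC than in IF uteri at an unadjusted p under 0.05. Of all 18706 genes, 1271 were past it in either direction. Between PBMC-hCG and PBMC, 0 pathway genes were higher and 13 lower, beside 3024 of all genes. The numbers for all genes were not split by direction, and nothing is read from these counts. Against control, 16 rose and 0 fell in PBMC uteri, beside 12.8% and 6.70% of all genes, with Ccl11 (1.91, adjusted p = 4.08e-06), S100a9 (2.72, adjusted p = 0.000408), Cebpb (1.07, adjusted p = 0.0258) and Fgfr1 (0.58, adjusted p = 0.000268) among them. In PBMC-hCG uteri 15 rose and 4 fell, beside 20.2% and 11.6%. The 4 that fell were Ccl7 (-1.81, adjusted p = 0.0259), Ccl2 (-1.19, adjusted p = 0.0177), Cebpd (-1.09, adjusted p = 0.0014) and Etv4 (-1.07, adjusted p = 0.00668), and Ccl11 was higher than in control by 1.32 (adjusted p = 0.00013).

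**Figure D5:**
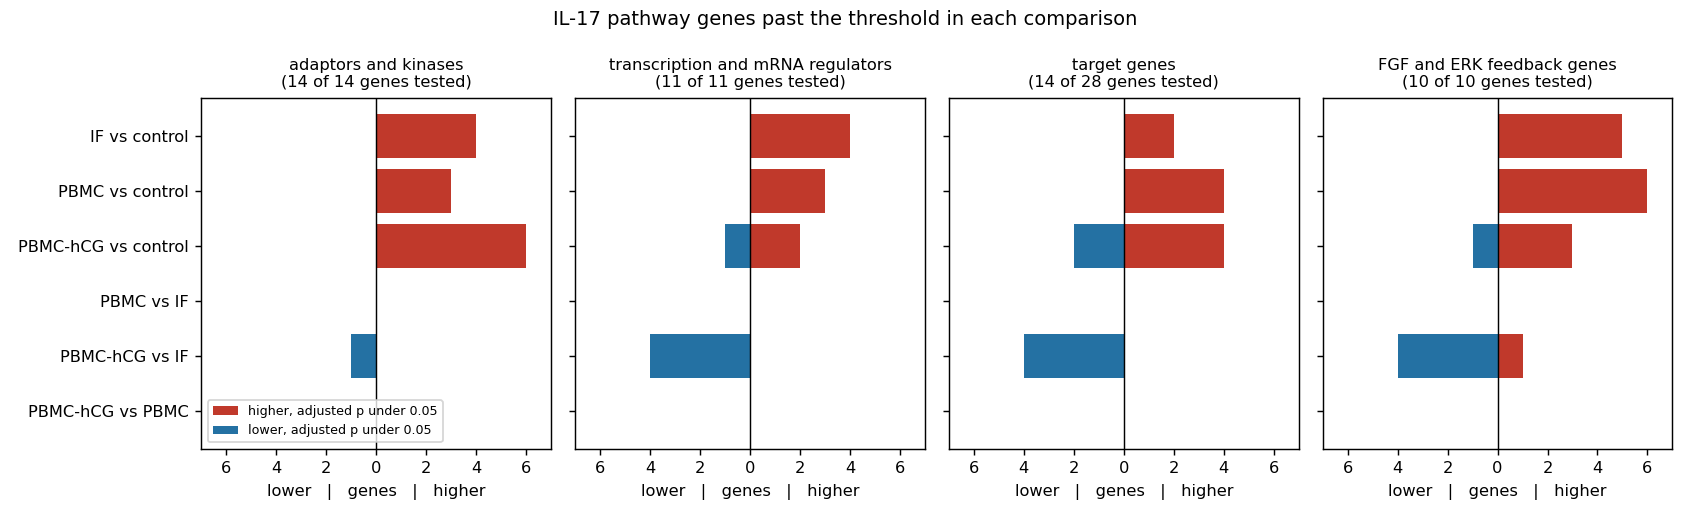
Number of pathway genes with an adjusted p under 0.05 (limma) that were higher (right, red) or lower (left, blue) in the first group named, for each comparison (rows) and list (panels). Between IF and control 15 genes rose and 0 fell, and between PBMC-hCG and IF 1 rose and 13 fell.

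Summed markers of other cell types also differed between the groups. The 5 stromal markers summed to 4000 to 5410 TPM in control and 6000 to 7574 TPM in the 15 treated uteri. Dcn carried most of this, with means of 1750 TPM in control and 3146 TPM in IF uteri, and the means of 3 of the 5 markers, Col1a1, Pdgfra and Hand2, were lower in IF than in control uteri. The 4 endothelial markers, all with higher means than control in each treated group, summed to 247 to 333 TPM in control and 374 to 468 TPM in the treated uteri. The 5 smooth muscle markers summed to 5350 to 8866 TPM in control, 5335 to 6422 in IF, 5110 to 6323 in PBMC and 4305 to 5358 in PBMC-hCG uteri. In IF uteri, 4 of the 5 had a lower mean than control and 1 a higher mean. In the PBMC and PBMC-hCG uteri all 5 had a lower mean. The 7 epithelial markers summed to 511 to 930 TPM in control, 761 to 981 in IF, 828 to 1075 in PBMC and 883 to 1177 in PBMC-hCG uteri. In each treated group, 6 of the 7 had a higher mean than control. The other was Foxa2, with means of 11.8 TPM in control, 6.21 in IF, 8.39 in PBMC and 6.91 in PBMC-hCG uteri. The part of tissue composition in the differences of the receptors was not tested.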

How the data were processed

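Uterine RNA of 20 mice was measured by stranded mRNA sequencing, 1 library per mouse and 5 mice per group. Groups and replicate numbers follow the sample labels, and the doses and days follow the study's methods. The values the authors deposited are TPM, obtained by trimming with Trimmomatic, alignment to mm10 (GRCm38) with HISAT2 and transcript assembly with StringTie. Versions of these tools are not given in the sources used here. The totals lay between 999989 and 999999 TPM, so depth is unknown and no counting error is given.

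From these values, log2(TPM + 0.1) was compared with limma (version 3.58.1, under R 4.3.3), with all 4 groups in a shared fit and a trend in the variance, over the 18706 genes above 0 in all 20 libraries. The pseudocount of 0.1 draws differences of low genes toward 0. Adjusted p-values are Benjamini-Hochberg values over all these genes, separately for each of 6 comparisons. The fit was tested on simulated data with independent noise for each gene. Variation shared between genes was not simulated, so that test does not cover it. The study's own test needs counts and was not run. Tables were handled with pandas 2.3.3 under Python 3.11.15, and matplotlib 3.10.9 drew the figures.

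The members and the pathway and marker lists were chosen with earlier results of these data known. Named pathway genes were, per list and comparison, up to 2 with the largest positive and 2 with the largest negative difference at an adjusted p under 0.05 and a mean of at least 1 TPM, and of these the text gives a selection. The alternatives were other pseudocounts, filters, scalings, call rules and fits, and each mouse left out in turn. The labels name no batch, so nothing was repeated within batches. Some genes among those most like a member are not reported here.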

Additional observations from a re-analysis of the deposited data

Results flagged for a closer look

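Of 115 groups of 5 mice examined gene by gene, 14 held 1 mouse that stood apart from the other 4 (gap to the nearest mouse divided by the range above Dixon's 95% critical value). About 1 in 20 groups would be flagged by chance if values were independent and normally distributed. TPM need not be normal, and the groups of different genes share the same mice. In 3 of the flagged groups the other 4 mice were at 0 (Il17a, Il25 and Il17c). The count of 14 is therefore not read against that rate. In control 2, Il17re was at 17.3 TPM, against 8.24 TPM in the next control. In IF 3, Il17re was at 14.2 TPM, Il17d at 20.6 TPM and Il25 at 0.0741 TPM, each the highest of the IF mice, and Etv4 at 0.364 TPM, the lowest. In PBMC 5, Il17ra was at 43.2 TPM, Ccl11 at 122 TPM and Il17c at 0.224 TPM. In PBMC-hCG 1, Cebpb was at 66.2 TPM, Ccl11 at 69.6 TPM and Ptgs2 at 1.90 TPM, each the highest of its group. In PBMC-hCG 2, Il17rc was the highest of its group at 25.7 TPM and S100a9 the lowest at 2.67 TPM. In PBMC 2, Il17a was at 0.122 TPM, with 0 in the other 4 mice.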

How the results depend on the processing

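Each named gene was followed in each alternative and in each comparison it covered, and every such case was counted. A named pathway gene lost a call in 125 cases and gained one in 11. Of the other 2984 cases, which include the members, given with no test, 88 changed sign. No called difference changed direction. The replicate block gave 14 pathway genes between IF and control, 13 between PBMC-hCG and IF, 16 between PBMC and control and 20 between PBMC-hCG and control, and changed no other count of calls by over 1.5 times. The deviations of mice with the same number had a median r of -0.0097 over 30 pairs, 8 of them above 0.1. For mice with different numbers it was 0.0088 over 120 pairs, 31 of them above 0.1. Whether mice shared a cage or a batch was not tested.

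With no filter on low values, 6 pathway genes were called between PBMC-hCG and IF. With a fold of at least 2 and an unadjusted p under 0.05, the pathway counts were 4 (IF and control), 2 (PBMC and IF), 7 (PBMC-hCG and IF), 4 (PBMC-hCG and PBMC), 4 (PBMC and control) and 8 (PBMC-hCG and control), and the member counts 1, 1, 1, 0, 0 and 2. Without both control 2 and IF 3, an alternative chosen after seeing the data, 22 pathway genes and 4 members were called between PBMC-hCG and IF.

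With each mouse left out in turn, pathway counts ranged from 9 (without control 3) to 18 (without control 2) between IF and control, from 12 to 20 between PBMC and control, from 14 to 24 between PBMC-hCG and control and from 0 to 18 between PBMC-hCG and IF. Member counts ranged from 4 to 6, from 4 to 5, from 5 to 5 and from 0 to 2. The highest counts against control were found without control 2. Between PBMC and IF and between PBMC-hCG and PBMC, all counts were 0. The cause of these changes was not tested. Depth is unknown, so how far it limits the genes near 0 TPM cannot be stated.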
